A study of Mus musculus with 4 samples.

Results

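Hlf, Ikzf2, Adgrg1, Procr, Mycn, Neurl3, Gfi1, Gfi1b, Myb and Cd27 are 10 genes commonly used to recognise the precursors of blood stem cells, and the stem cells themselves, in the mouse embryo. They were taken by symbol, 10 of the 32285 genes in the count tables, and were followed through single cells of the aorta-gonad-mesonephros (AGM) at embryonic day 11.5. The AGM is the region around the dorsal aorta where blood stem cells are first made. Both groups were C57BL/6J cells sorted for CD31, a surface protein of endothelial and early blood cells encoded by Pecam1. They differed in the fluorescence of TMRM, a dye that gathers in mitochondria according to their membrane potential: MMPlow cells were dim and MMPhigh cells bright. Each group had 2 droplet libraries that count the 3' ends of transcripts by unique molecular identifiers (UMIs). The labels do not say whether the libraries of a group came from separate embryos or pools, so every p-value below measures only the spread between libraries.

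Stem cell precursors arise when cells of the arterial endothelium switch on blood genes, leave the vessel wall and mature through pre-stem-cell stages. Gfi1 and Gfi1b are repressors that silence endothelial genes during this switch, and Gfi1b later serves erythroid cells and megakaryocytes. Hlf, Ikzf2 (Helios), Mycn and Myb are transcription factors active in stem or progenitor cells. Procr (the protein C receptor EPCR), Adgrg1 (GPR56) and Cd27 are surface receptors used to enrich stem cells, and Neurl3, a ubiquitin ligase gene, marks endothelium about to turn to blood.

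After filtering, 15718 and 18442 MMPlow cells and 4196 and 3282 MMPhigh cells were kept, with median depths of 3082, 3641, 3780.5 and 22963.5 UMIs. Clusters were named from marker lists, with "-like" added. The gates differed in makeup: endothelial-like cells numbered 7634 and 8697 in MMPlow but 15 and 13 in MMPhigh, whereas neural or neural crest-like cells numbered 362 and 405 in MMPlow and 1257 and 1105 in MMPhigh. Pecam1, which encodes the sorted protein, stood at 275 and 262 CPM (UMIs of a gene scaled to a total of 1000000) in MMPlow and at 24.8 and 23.1 CPM in MMPhigh, so the CD31+ label had little support in the RNA of the MMPhigh libraries. Pair by pair, libraries shared between 14 and 369 of all deposited cell barcodes, and between 7 and 89 of those that passed the filter on depth.

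Gfi1 and Gfi1b encode related proteins but peaked in different cells, so the 250 bases before their RefSeq start sites are shown (GRCm38.p6, the build that corresponds to mm10, both on the minus strand, 5' to 3'). Capitals mark GATA words (AGATAA or TGATAA) and the GFI core word (AAATCA), searched on both strands. The stretches lie just upstream of the genes, at chr2:28621983-28622232 for Gfi1b and at chr5:107725806-107726055 for the first of the 2 listed Gfi1 start sites.
Gfi1b: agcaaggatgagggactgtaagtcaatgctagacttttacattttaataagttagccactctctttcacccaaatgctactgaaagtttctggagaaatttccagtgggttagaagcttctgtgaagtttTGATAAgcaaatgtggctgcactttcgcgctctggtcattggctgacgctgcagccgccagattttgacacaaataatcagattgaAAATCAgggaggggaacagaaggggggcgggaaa
Gfi1: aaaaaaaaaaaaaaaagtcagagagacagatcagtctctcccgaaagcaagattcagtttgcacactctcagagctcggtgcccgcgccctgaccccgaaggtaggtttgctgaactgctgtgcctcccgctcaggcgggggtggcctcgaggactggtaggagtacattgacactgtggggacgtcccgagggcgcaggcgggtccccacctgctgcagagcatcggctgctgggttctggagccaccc
Gfi1b held TGATAA 120 bases and AAATCA 34 bases before its start, and the Gfi1 stretch held neither word. Among 32851 such promoters, 16.6% held a GATA word and 12.4% the GFI core word. A match is a description of letters, and these words were chosen after the sequences had been seen. Of the 10 genes, 9 had a promoter in the table. A GATA word was found in Neurl3 besides Gfi1b, and the GFI core word in Mycn besides Gfi1b. RUNX (TGTGGT) and ETS (AGGAAGT) words, held by 14.0% and 7.69% of all promoters, were found in no listed promoter of these genes.

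The 10 genes did not share one cell type. Summed within each class and library and scaled to CPM, 8 of the 10 reached their highest mean level in a blood class, Procr in endothelial-like cells, and Mycn in a small class led by Dppa5a, Afp and Dppa3. Several of the classes were blood classes, and the share of all genes that peak in one was not computed, so the count of 8 has no background beside it. Classes with fewer than 20 cells in a library were left out of these means, so endothelial-like levels rest on the 2 MMPlow libraries. The order is a description, with no test. It also depended in part on the clustering: in the 3 other clusterings tried, Adgrg1 was highest in megakaryocyte-like cells and Myb in erythroid-like or granulocyte- or mast-like cells, and in 2 of them Hlf and Cd27 were highest in progenitor-like cells. The highest class of the other 6 genes was the same in each.

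Of the transcription factors and repressors, Hlf was highest in the granulocyte- or mast-like class, at 43.3 and 44.9 CPM in MMPlow and 10.0 and 42.0 CPM in MMPhigh (mean 35.0 ± 16.7, SD, n = 4). MMPhigh 1 was the low library, with 7 Hlf UMIs. This class was led by Mpo and Atp8b4 but also carried the progenitor marker list at 2090 to 3613 CPM, so it was not purely granulocytic. The next class, led by Dppa5a and Afp, had 6.60 ± 3.53 CPM of Hlf (SD, n = 4). Ikzf2 stood at 597, 590, 101 and 280 CPM (MMPlow 1 and 2, MMPhigh 1 and 2) in the granulocyte- or mast-like class and at 205, 282, 361 and 184 CPM in the progenitor-like class, which was led by Muc13, Ripor2 and Itga4. The ranges of the 2 classes overlapped, so their order was not resolved for Ikzf2. Myb, needed for definitive blood formation, was highest in progenitor-like cells (250 ± 8.93 CPM, SD, n = 4), and next in erythroid-like cells (218 ± 18.5 CPM, SD, n = 4), with library values that overlapped.

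Gfi1 and Gfi1b separated. Gfi1 was read at 9.25, 7.27, 21.4 and 3.77 CPM in the granulocyte- or mast-like class (MMPlow 1 and 2, MMPhigh 1 and 2), and its next highest mean, in endothelial-like cells, was 0.329 CPM. Its counts were small: 25, 33, 15 and 7 UMIs. Gfi1b was at 94.1 ± 16.9 CPM in megakaryocyte-like cells and 78.9 ± 10.9 CPM in erythroid-like cells (SD, n = 4 each), values that lay within their spread of each other. In endothelial-like cells of MMPlow, Gfi1b had 6.92 and 4.67 CPM.

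Of the receptors, Adgrg1 was highest in progenitor-like cells (277 ± 38.2 CPM) and next in megakaryocyte-like cells (215 ± 21.5 CPM, SD, n = 4 each). Cd27 was at 21.1, 15.2, 4.29 and 22.1 CPM in the granulocyte- or mast-like class, with MMPhigh 1 again the low library, on 3 UMIs. Procr was the endothelial gene of the set: endothelial-like cells had 17.15 and 16.98 CPM in MMPlow, against a mean of 7.15 CPM in the granulocyte- or mast-like class of MMPlow. Over both gates that class had 4.33 ± 3.25 CPM (SD, n = 4). Endothelial-like cells held 75.0% and 73.3% of all Procr UMIs of the MMPlow libraries. Neurl3 was highest in macrophage-like cells, at 30.99, 34.2, 47.9 and 44.8 CPM. Endothelial-like cells, the kind Neurl3 is known for at this age, had 5.84 and 6.14 CPM in MMPlow.

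**Figure D1:**
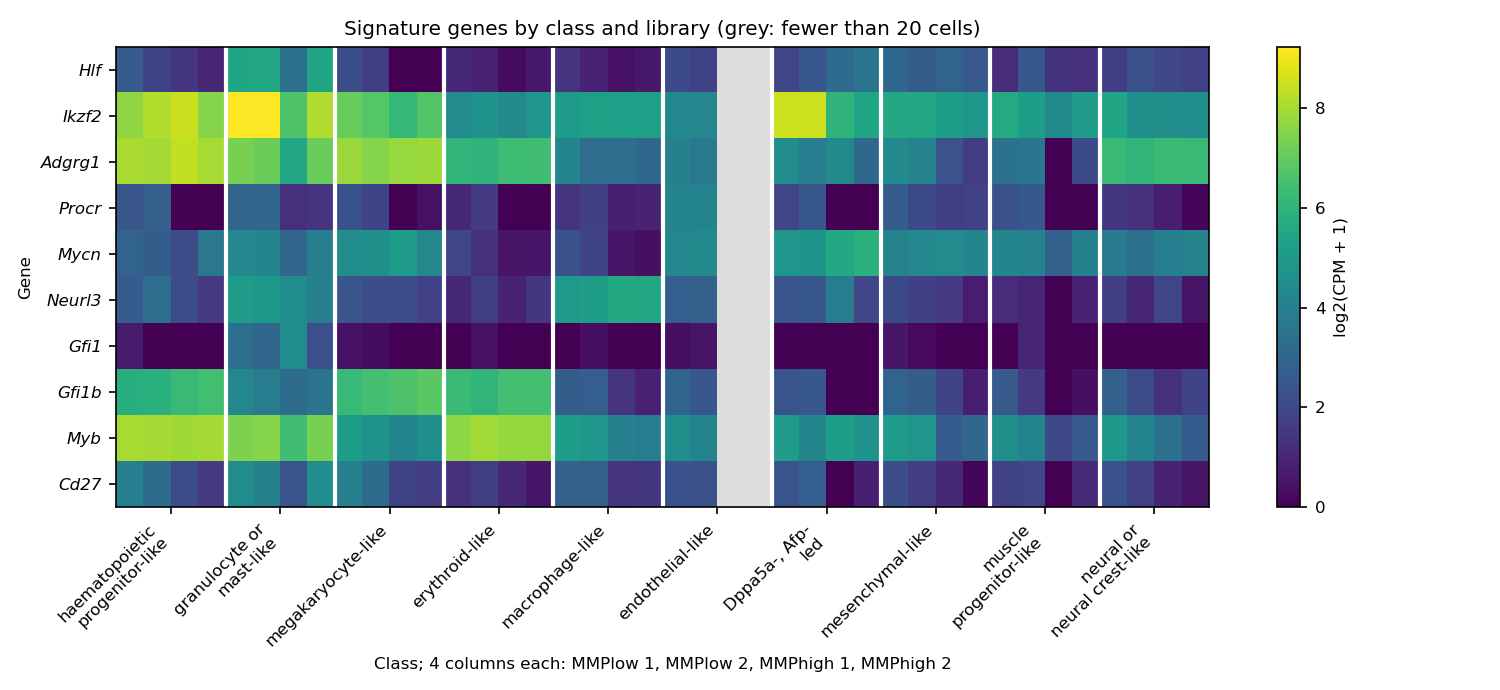
Level of each gene, as log2(CPM + 1) of summed UMIs by colour, in 10 classes with 4 libraries each (order MMPlow 1, MMPlow 2, MMPhigh 1, MMPhigh 2). Grey marks libraries with fewer than 20 cells of a class. All genes share the colour scale, so genes of low level stay dark. Within its own row, Gfi1 stands out in the granulocyte- or mast-like class alone. Gfi1b stands out in megakaryocyte-, erythroid- and progenitor-like classes, and Procr in endothelial-like cells.

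A finer clustering, into 44 clusters in place of 27, split the class that held Hlf. A cluster led by Flt3, Mndal, Tespa1, Angpt1 and Ifi203 (403, 491, 38 and 44 cells) had Hlf at 70.1, 78.4, 12.6 and 59.1 CPM. No other cluster with 20 cells in a library had a mean above 11.7 CPM. The cluster held 31.1%, 41.6%, 7.0% and 26.7% of the Hlf UMIs of the 4 libraries. Flt3 encodes a receptor of early lympho-myeloid progenitors and Angpt1 a ligand made by stem and progenitor cells. The cluster also had the highest Cd27 mean (27.5, 23.0, 3.60 and 29.9 CPM), with Ikzf2 at 333, 299, 77.4 and 151 CPM and Adgrg1 at 174, 145, 50.4 and 126 CPM. All 4 genes were lowest in MMPhigh 1, whose part in this cluster is 38 cells.

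The other finer clusters each favoured another subset. The cluster led by Mpo and Atp8b4 had the highest Ikzf2 level (931, 910 and 517 CPM in the 3 libraries with at least 20 cells) and held 41.9%, 35.9%, 100% and 85.7% of all Gfi1 UMIs. In MMPhigh 1 those Gfi1 reads were 15 UMIs in a cluster of 7 cells. A cluster led by Muc13 and Prkg1 had the highest Adgrg1 level, at 420, 337, 332 and 261 CPM. In the cluster led by Slc25a21 and Kcnn4, Myb was at 280 and 268 CPM in MMPlow. Gfi1b peaked in megakaryocyte-like cells led by Thbs1 and Itgb3 (77.3, 87.6, 112 and 116 CPM).

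Procr and Neurl3 peaked outside the progenitors. Procr was highest in an endothelial-like cluster led by Tll1 and Emcn, at 45.8 and 44.96 CPM in MMPlow, and an arterial cluster led by Vegfc and Gja5, the vessel type from which stem cells arise, had 25.8 and 22.1 CPM. That arterial cluster had Neurl3 at 12.2 and 10.6 CPM and Ikzf2 at 69.6 and 70.0 CPM in MMPlow. Neurl3 was at 108, 83.0 and 84.1 CPM in a macrophage-like cluster led by Ctss and Lair1, in the 3 libraries with at least 20 cells.

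**Figure D2:**
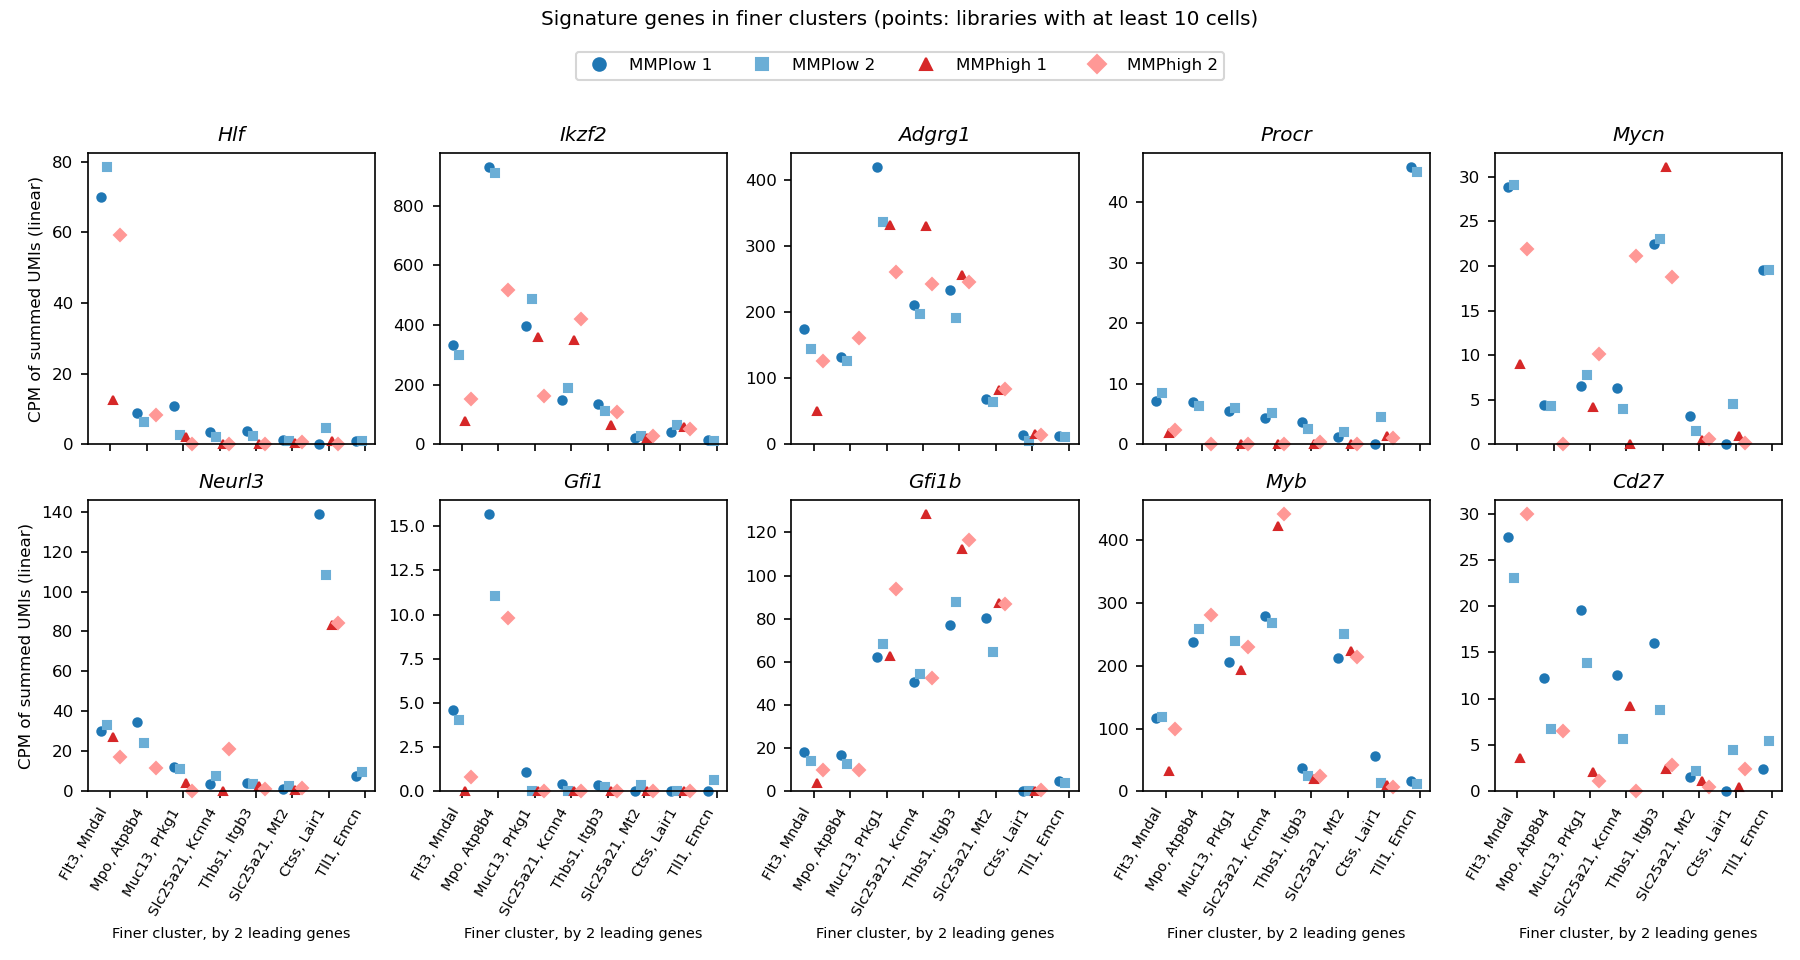
CPM of summed UMIs (linear axis) of each gene in 8 finer clusters, named by their 2 leading genes, with 1 point per library that had at least 10 cells. Hlf stands out in the cluster led by Flt3 and Mndal, at 70.1, 78.4 and 59.1 CPM in 3 libraries and 12.6 CPM in MMPhigh 1, while Gfi1, Procr and Neurl3 stand out in other clusters.

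For each gene, the 3 genes with the most similar levels were found over 38 sums of a class in a library, by Pearson r of log2(CPM + 10) among 12986 genes. The sums of a class share cell type and those of a library share depth and background, so these values describe the data and carry no test. Gfi1b followed Gata1 most closely (r = 0.99), then Zfpm1 (0.96), the gene of the GATA1 partner FOG1. Gfi1 followed Elane (0.96), the neutrophil elastase gene. Procr followed Cav1 (0.95), which encodes the caveolin of endothelial membranes, and Neurl3 followed Snx20 (0.96). Myb was most like Ptprcap (0.93) and Spn (0.93), Adgrg1 like Nol4l (0.91), Cd27 like Pde6h (0.91), Hlf like Il1r2 (0.90), Ikzf2 like Ern1 (0.88) and Mycn like Tet1 (0.80). Over 118 sums of the finer clusters, Gfi1b kept Gata1 and Myb kept Spn and Ptprcap among the 3 most similar genes, and the other 8 genes shared none of the 3 with those over classes. Gfi1, for example, was there most like Cd200r3 (0.90) and Hlf like Lax1 (0.76).

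Which cells hold several of these genes at once was read after thinning every cell to 2000 UMIs, so that depth was equal. At that depth at least 3 of the 10 genes were found in 1.92% (301 cells), 1.70% (313 cells), 0.5005% (21 cells) and 0.884% (29 cells) of all cells. Of these cells in MMPlow, 41.5% and 45.05% were granulocyte- or mast-like, 34.9% and 29.1% progenitor-like, and 2.66% and 2.56% endothelial-like. The order of these classes turned with the clustering: at the finer resolution, where the Flt3- and Mndal-led cluster fell in the progenitor-like class, 60.5% and 58.1% were progenitor-like and 16.6% and 18.8% granulocyte- or mast-like. In the Flt3- and Mndal-led cluster the share was 18.4% and 15.7% in MMPlow, 0 of 38 cells in MMPhigh 1 and 9.09% in MMPhigh 2. An observed 0 of 38 allows up to 9.25% by the exact 95% binomial interval, which covers counting error alone. Endothelial-like cells in MMPlow had 0.105% and 0.0920%. In neural or neural crest-like cells, taken as background, the shares were 0.552%, 0%, 0.159% and 0.181%. These cells are not negative for every gene: mean Adgrg1 there was 72.4 ± 5.30 CPM, beside 73.5 ± 10.3 CPM in erythroid-like cells (SD, n = 4 each). Doublet removal was not varied for these counts or for the pairs and the Hlf split below. Doublet calls had not worked in MMPlow 1 and MMPhigh 1.

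In the progenitor-like class 9.32% and 10.6% of MMPlow cells and 15.1% and 20.5% of MMPhigh cells held at least 3 of the genes, on 105, 91, 8 and 9 cells. The exact 95% intervals of the MMPhigh shares, 6.75% to 27.6% and 9.80% to 35.3%, reach down to the MMPlow values in MMPhigh 1 and to the MMPlow 2 value in MMPhigh 2. The order rested on this clustering: the shares were 8.70%, 9.33%, 8.42% and 12.6% in the progenitor-like class at the finer resolution, and 11.9%, 12.9%, 11.6% and 13.3% with the 10 genes allowed among the clustering genes. The class also differed in makeup: the Muc13- and Prkg1-led cluster gave 288 of its 1127 and 283 of its 859 cells in MMPlow but 40 of 53 and 27 of 44 in MMPhigh. Within that cluster the order was the opposite one, at 15.1% and 21.7% in MMPlow and 9.52% and 13.8% in MMPhigh. These values rest on 45 and 65 cells in MMPlow and on 4 cells in each MMPhigh library, so neither order is established. With 2 libraries against 2, a two-sided exact permutation test cannot give a p below 0.33, so differences in shares between gates are not tested here.

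**Figure D3:**
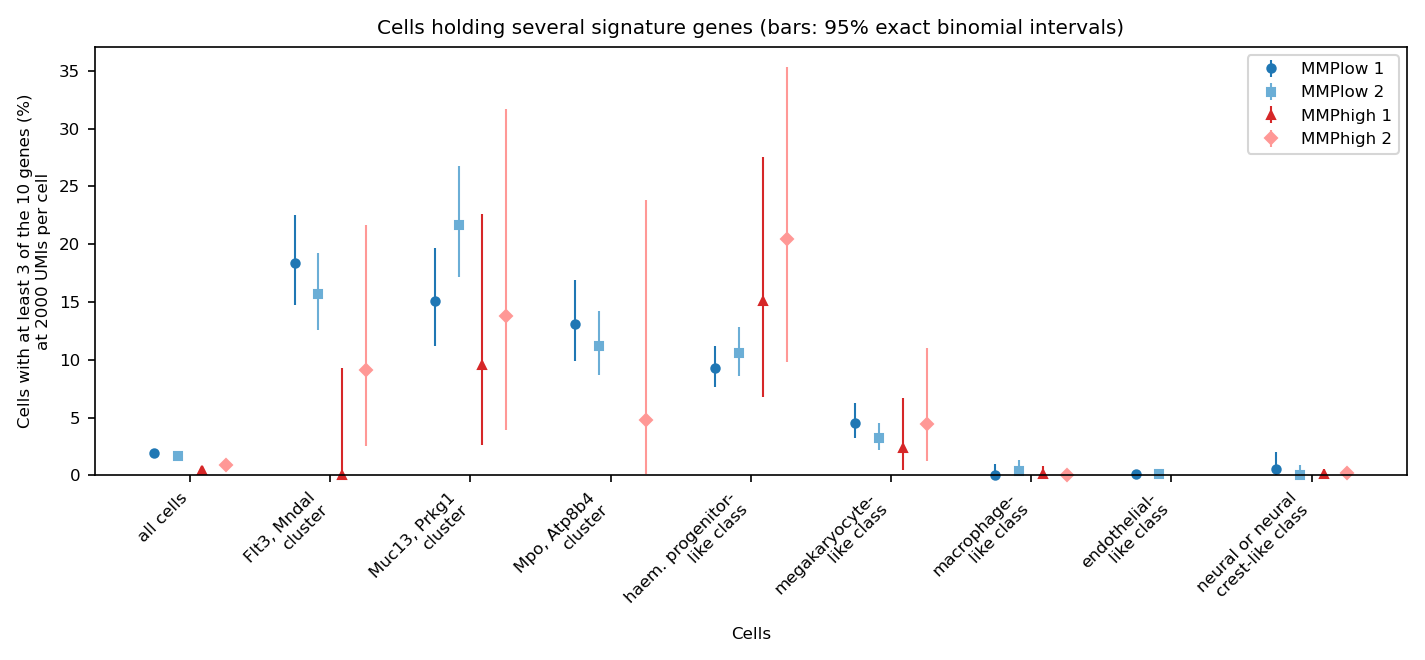
Percentage of cells with UMIs of at least 3 of the 10 genes after thinning to 2000 UMIs per cell, by cell set and library, with exact 95% binomial intervals. The Flt3- and Mndal-led cluster (except MMPhigh 1, at 0 of 38 cells) and the Muc13- and Prkg1-led cluster lie above all cells (0.5005% to 1.92%), and the endothelial-like class lies near 0.

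Pairs of genes were counted in the same cells over the 2 MMPlow libraries and set beside the count that the product of their shares gives. Across all 34160 MMPlow cells, 23 of 45 pairs had an exact 95% Poisson interval above that product and 4 lay below it, in a set that mixes cell types. Over all 71514820 pairs of the 11960 genes found in 63 to 3792 of these cells, the range of the 10 genes, 4.88% lay above and 2.92% below. How easily an interval clears the product depends on how many cells hold each gene, which was not matched. Of those below, 3 paired Procr with a blood gene: Procr and Gfi1b were found together in 8 cells against 22.3, Procr and Myb in 47 against 69.1, and Procr and Adgrg1 in 46 against 64.8. The fourth was Mycn with Myb, in 74 cells against 96.9. Within the 894 MMPlow cells of the Flt3- and Mndal-led cluster, 7 of 45 pairs lay above the product and 0 below, beside 0.955% and 0.405% of the pairs of 10227 genes chosen in the same way. Hlf and Ikzf2 were together in 74 cells (interval 58.1 to 92.9) against 47.5, Ikzf2 and Adgrg1 in 150 against 100, and Ikzf2 and Myb in 121 against 81.2. These 3 pairs lay above the product in each MMPlow library. Hlf and Mycn were together in 15 cells against 7.72, and Hlf and Gfi1 in 5 against 1.49, but their intervals lay above the product in MMPlow 1 alone (9 against 3.10 and 3 against 0.476), and in MMPlow 2 covered it (6 against 4.63 and 2 against 1.01). Adgrg1 and Cd27 and Myb and Cd27, the remaining pairs, lay above it over both libraries together and in neither alone. Hlf and Procr were together in 3 cells against 2.21 (interval 0.619 to 8.77), which at this depth could not be told from the product.

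Cells of that cluster with a Hlf UMI were then set beside those without, 48 against 355 in MMPlow 1 and 71 against 420 in MMPlow 2, all at 2000 UMIs. Mecom, which encodes the stem cell regulator EVI1, was found in 64.6% and 60.6% of the Hlf-holding cells against 26.5% and 22.6% of the others. Prdm16, the gene of a related regulator, was in 14.6% and 12.7% against 1.97% and 2.86%. Both genes were thus more frequent beside Hlf in each library. Etv6 was in 95.8% and 85.9% against 66.8% and 64.8%, and Msi2, which encodes an RNA-binding protein of stem cells, in 87.5% and 70.4% against 56.3% and 43.6%. The granule enzyme gene Mpo went the other way, at 16.7% and 18.3% against 31.5% and 27.6%, as did the lymphoid receptor gene Il7r, at 0% and 7.04% against 10.1% and 12.6%. No other gene of the granulocyte or mast and lymphoid marker lists was read by name. Gfi1, highest in the granulocyte- or mast-like class, was more frequent beside Hlf (6.25% and 2.82% against 0.282% and 1.19%). Mpo and Il7r thus do not stand for their lineages. In MMPlow 2 the exact 95% intervals of both, 10.1% to 29.3% for Mpo and 2.33% to 15.7% for Il7r, cover the other cells' share.

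Beyond the 10 genes, a companion list of 37 pre-stem-cell and stem-cell genes was read in the same way. Of these, 27 were more frequent in Hlf-holding cells in both libraries and 2 less frequent, beside 26.6% and 27.9% of the 10950 genes found in at least 10 cells of the cluster in MMPlow. For 9 of them (Runx1, Mecom, Meis1, Erg, Lyl1, Etv6, Angpt1, Msi2 and Prdm16) the exact 95% interval in Hlf-holding cells lay above the other cells' share in both libraries, beside 0.767% of those genes. How easily a gene clears these marks depends on how many cells hold it, which was not matched. In MMPlow 1, Runx1 and Etv6 were in 79.2% and 66.8% of the other cells and Prdm16 in 1.97%. Among the other 9 signature genes, 5 were more frequent in both libraries and 0 less frequent, and Ikzf2 alone had its interval above in both (64.6% and 60.6% against 38.6% and 35.0%). This split was chosen after values had been seen and carries no test. MMPhigh held 2 and 4 Hlf-holding cells of this cluster, too few to describe.

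**Figure D4:**
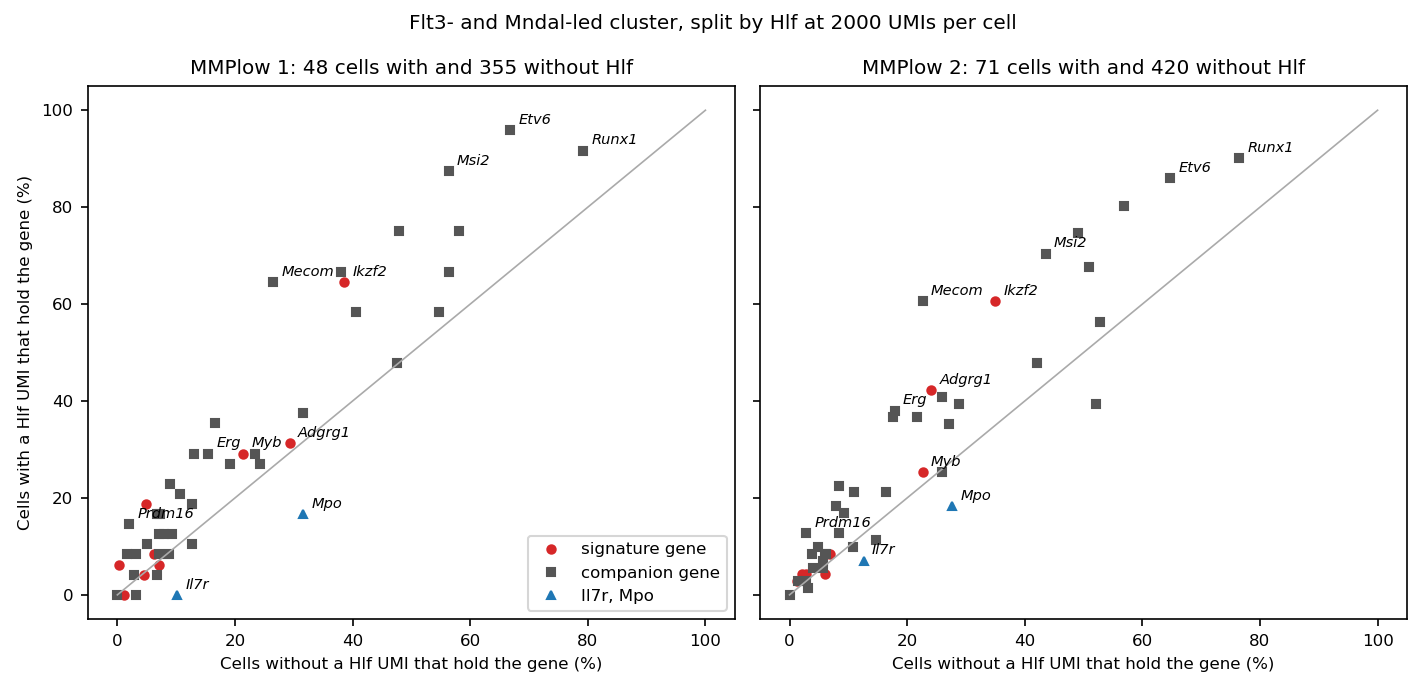
For each gene, the percentage of Hlf-holding cells (vertical) and of other cells (horizontal) of the Flt3- and Mndal-led cluster with a UMI of it, in MMPlow 1 and MMPlow 2 at 2000 UMIs per cell. Points above the grey line of equal shares are more frequent beside Hlf. Mecom lies at 64.6% against 26.5% and at 60.6% against 22.6%, and Mpo and Il7r lie below the line.

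The gates were compared first over all cells. In sums over all cells, fewer cells of a type and less RNA per cell cannot be told apart, and in these libraries the makeup differed widely: the 12 endothelial markers summed to 3079 and 3037 CPM in MMPlow and 138 and 118 CPM in MMPhigh. By edgeR's quasi-likelihood test with Benjamini-Hochberg adjustment, 8 of the 10 genes were called at an adjusted p under 0.05, beside 53.9% of the 20368 genes tested. The share called was thus high everywhere. The direction was mostly down: 6 were lower in MMPhigh, where 26.6% of all genes were, and 2 higher, where 27.3% were. The median log2 difference of the 10 was -0.69, beside 0.01 over all genes tested.

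Procr fell most, from 10.98 and 10.3 CPM in MMPlow to 0.883 and 0.608 CPM in MMPhigh (log2 difference -3.87, SE 0.20, edgeR adjusted p = 1.09e-06). Cd27 was at 6.50, 5.02, 1.31 and 1.26 CPM (-2.13, SE 0.20, edgeR adjusted p = 3.53e-05). Ikzf2 was at 74.4, 81.0, 33.5 and 37.3 CPM (-1.10, SE 0.09, edgeR adjusted p = 1.69e-05), and was not called with at least 5000 UMIs per cell (-0.37, adjusted p = 0.13). In these 3 genes both MMPhigh libraries lay below both MMPlow libraries. Hlf had the same order, at 5.58, 5.35, 2.52 and 2.81 CPM (-0.99, SE 0.16). Mycn differed less, at 15.5, 16.3, 11.5 and 12.1 CPM (-0.40, edgeR adjusted p = 0.0093), and was not called without MMPlow 2 (edgeR adjusted p = 0.077) or with thinned cells (0.17).

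Gfi1 rested on few molecules, at 0.697, 0.735, 0.378 and 0.072 CPM (-1.96, SE 0.63, edgeR adjusted p = 0.034). The Gfi1 call was lost without MMPlow 1 (adjusted p = 0.104), MMPlow 2 (0.142) or MMPhigh 2 (0.104), by DESeq2 (0.055) and with at least 5000 UMIs per cell (0.24). Gfi1 was highest in MMPlow 2 and lowest in MMPhigh 2. Neurl3 was higher in MMPhigh, at 7.69, 8.80, 12.7 and 11.5 CPM (0.58, SE 0.13, edgeR adjusted p = 0.0052), beside macrophage-like cells that made up 370 and 546 cells of the MMPlow and 662 and 875 of the smaller MMPhigh libraries. The part of this makeup in the Neurl3 difference was not tested over all cells. Gfi1b, at 16.8, 16.9, 19.0 and 22.6 CPM, was called higher (0.34, edgeR adjusted p = 0.021) but was not called without MMPlow 1 (0.114), MMPlow 2 (0.076) or MMPhigh 2 (0.149), by DESeq2 (0.052), or with cells of at least 1000 UMIs (0.47) or at least 5000 UMIs (0.068) kept, and thinning to 2000 UMIs gave -0.02. Erythroid-like cells held 55.9% and 73.6% of the Gfi1b UMIs and 57.9% and 75.5% of the Myb UMIs of the MMPhigh libraries.

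Adgrg1 (52.8, 45.8, 52.5 and 54.3 CPM) and Myb (55.8, 59.4, 45.1 and 54.2 CPM) were not called, with edgeR adjusted p of 0.18 and 0.16. Leaving out MMPhigh 2 made the Myb call (log2 difference -0.31, adjusted p = 0.023), as did thinning (-0.66, 0.0063) and keeping cells of at least 1000 UMIs (-0.39, 0.038). With at least 5000 UMIs per cell Adgrg1 was called higher (0.61, adjusted p = 0.0015). Of the 37 companions, 10 were called higher and 23 lower (median log2 difference -0.66), led by the endothelial genes Cdh5 (-5.90), Tek (-5.55) and Sox17 (-5.49). The Sox17 call was lost without MMPlow 1 (edgeR adjusted p = 0.098) or MMPlow 2 (0.074).

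**Figure D5:**
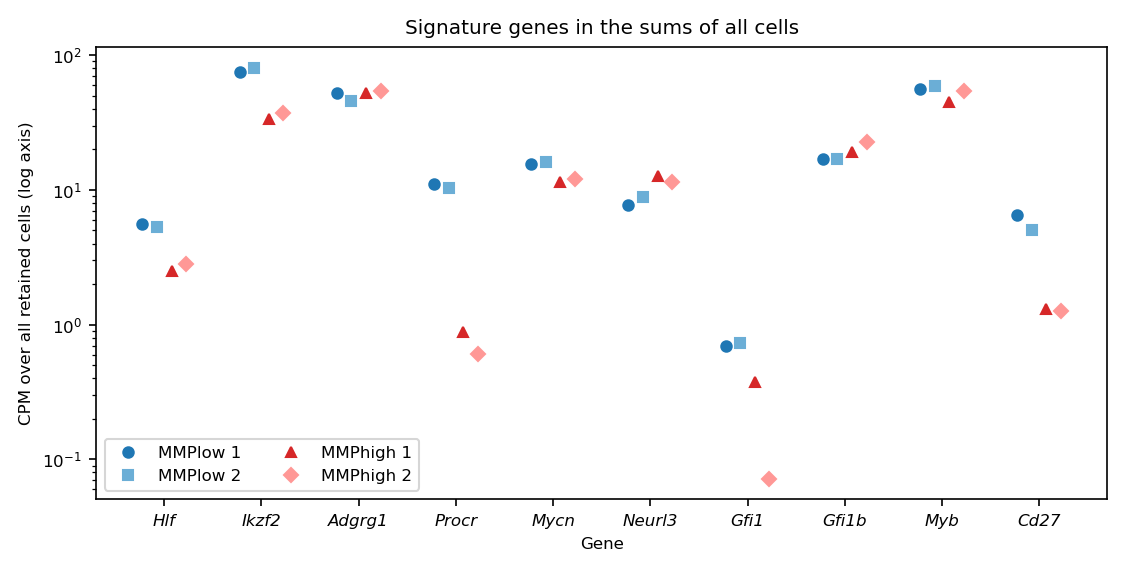
Level of each gene in the sums of all retained cells, in CPM on a log axis, 1 point per library. Both MMPhigh libraries lie below both MMPlow libraries for Hlf, Ikzf2, Procr, Mycn, Gfi1, Cd27 and, narrowly, Myb, and above them for Neurl3 and Gfi1b, while Adgrg1 overlaps.

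Shares of cells were compared at equal depth. At 2000 UMIs per cell, 8 of the 10 genes were found in a smaller share of cells in both MMPhigh libraries than in both MMPlow libraries, beside 42.0% of the 20456 genes found in at least 10 cells, and Neurl3 in a larger share, beside 28.7%. Gfi1b was among the 8 (3.17%, 2.96%, 2.88% and 2.50%), against its higher CPM over all cells. Without thinning, 2 genes were lower and 4 higher, beside a median depth of 22963.5 UMIs in MMPhigh 2. Hlf was in 1.04% and 0.954% of MMPlow cells and 0.381% and 0.457% of MMPhigh cells, beside 0.552%, 0.247%, 0.239% and 0.271% of neural or neural crest-like cells, taken as background. In each library the Hlf share was above this background, which rests on few Hlf-holding cells and was given no interval. The reading depends on the class taken. In CPM, mean Hlf in mesenchymal-like cells was 6.52 in MMPlow and 5.80 in MMPhigh, above the 5.47 and 2.67 over all cells. Procr was in 2.11%, 2.16%, 0.262% and 0.152% of cells, and Ikzf2 in 10.96%, 11.2%, 5.65% and 7.37%. The Ikzf2 background in neural or neural crest-like cells was 6.08%, 6.17%, 4.93% and 5.16%, below the share over all cells in each library.

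Within the progenitor-like class (1127, 859, 53 and 44 cells), 8 of the 10 genes had enough UMIs to be tested and 2 were called, beside 10.8% of 10997 genes. The gates' different makeup of this class, given above, stands beside these values, and its part in them was not tested. Hlf and Gfi1 were too sparse there to test. Gfi1b rose, from 55.8 and 58.3 CPM in MMPlow to 75.6 and 84.8 CPM in MMPhigh (log2 difference 0.67, SE 0.20, edgeR adjusted p = 0.042). That call was lost without MMPlow 1 (0.57), MMPlow 2 (0.32) or MMPhigh 2 (0.28), by DESeq2 (0.39), with thinned cells (0.73), with at least 5000 UMIs per cell (0.081) and with no filter on low genes (0.069). With the 10 genes allowed in clustering the Gfi1b difference turned to -0.70 (adjusted p = 0.14). Procr was read 16 and 20 times in the MMPlow libraries and never in MMPhigh. Taking 3 UMIs for the whole MMPhigh group as the limit that a count of 0 allows, it was at least 2.81-fold lower. Procr passed the filter on low counts through MMPlow alone, so its call (edgeR adjusted p = 0.038) supports nothing beyond those counts. It was not called without MMPhigh 1 (0.0501), without MMPhigh 2 (0.21), with no filter on low genes (0.056) or with the 10 genes allowed in clustering (0.16), was given no adjusted p by DESeq2, and was too sparse to test without MMPlow 1, without MMPlow 2, with thinned cells or with at least 5000 UMIs per cell.

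The other progenitor-like results did not pass the test. Cd27 was at 14.9, 8.50, 3.44 and 1.93 CPM (log2 difference -2.05, edgeR adjusted p = 0.059) and was called without MMPhigh 1 (0.0486). Adgrg1 was at 267, 248.7, 333 and 259 CPM (0.34, edgeR adjusted p = 0.31; 0.85 and 0.040 with at least 5000 UMIs per cell) and Myb at 258, 253, 237 and 252 CPM (0.10, edgeR adjusted p = 0.81). Adgrg1 overlapped between the gates, and both MMPhigh values of Myb lay just below the MMPlow values. Ikzf2 (0.28), Mycn (0.64) and Neurl3 (-1.36) were not called either. Of 34 companions tested, 5 were called higher and 8 lower, led by the endothelial genes Sox17 (-7.21, SE 1.65), Cdh5 (-6.44, SE 0.57) and Cd93 (-3.18, SE 0.52). The size of the Sox17 value is thus loosely fixed. Runx1, Gata2, Kit, Spn, Ptprc and Angpt1 of that list are also markers by which the class was named.

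Markers of endothelial cells moved with these differences. In the progenitor-like class the 12 endothelial markers summed to 946 and 859 CPM in MMPlow and to 289 and 279 CPM in MMPhigh, with Cldn5 at 0 in both MMPhigh libraries. Their sum was also lower in MMPhigh in macrophage-like cells (574, 480, 97 and 94 CPM) and in mesenchymal-like cells (916, 761, 59 and 59 CPM). The 12 granulocyte or mast markers of the progenitor-like class summed to 407, 369, 41 and 43 CPM. The part of these markers in the Procr and Cd27 values was not tested.

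The Flt3- and Mndal-led cluster could be compared on its own, with 18.0% of 9928 genes called. Of its 8 tested members 1 was called: Ikzf2 fell, from 333 and 299 CPM to 77.4 and 151 CPM (log2 difference -1.15, SE 0.24, edgeR adjusted p = 0.0055), and the call was lost without MMPlow 1 (0.12). Without MMPhigh 2, Hlf, Adgrg1, Myb and Cd27 were called lower as well, 5 calls in all beside 15.8% of genes called, on MMPhigh 1 alone for the MMPhigh side. Of 35 companions tested there, 0 were higher and 9 lower. The endothelial markers summed to 974, 883, 243 and 403 CPM in this cluster. In the Muc13- and Prkg1-led cluster, with 13.3% of genes called, Cd27 fell from 19.6 and 13.9 CPM to 2.09 and 1.13 CPM (-3.20, SE 0.77, edgeR adjusted p = 0.011). Cd27 passed the filter on low counts through MMPlow alone, so its call supports nothing beyond few reads in MMPhigh. The Cd27 call was lost without MMPlow 1 (0.38), MMPlow 2 (0.083) or MMPhigh 2 (0.098). Without MMPhigh 1, 4 genes were called there, Ikzf2 and Neurl3 lower and Gfi1b higher besides Cd27, and 28.5% of all genes.

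Over the other classes 16 calls were made. The largest numbers came from macrophage-like cells (5 of 7 tested, beside 18.9% of genes called) and mesenchymal-like cells (5 of 9, beside 19.2%). In macrophage-like cells Neurl3 rose, from 30.99 and 34.2 CPM to 47.9 and 44.8 CPM (log2 difference 0.53, SE 0.13, edgeR adjusted p = 0.012), and was not called without MMPlow 1 (0.064). The Ctss- and Lair1-led cells with high Neurl3 numbered 17, 43, 163 and 333, beside 370, 546, 662 and 875 macrophage-like cells. Their part in the Neurl3 difference of macrophage-like cells was not tested. Myb, Cd27, Gfi1b and Mycn went down in macrophage-like cells, where their levels were low, by log2 differences of -1.04, -1.73, -2.36 and -3.00. Mesenchymal-like cells gave lower Adgrg1 (-2.62), Cd27 (-2.66), Myb (-2.11), Gfi1b (-2.02) and Ikzf2 (-0.50). Cd27 in both classes, and Gfi1b and Mycn in macrophage-like cells, passed the filter on low counts through MMPlow alone. Those calls support nothing beyond few reads in MMPhigh. In MMPlow, mean Myb was 19.7 CPM in endothelial-like and 22.9 CPM in neural or neural crest-like cells, against 255 CPM in progenitor-like cells. In macrophage-like and mesenchymal-like cells of MMPlow it was similarly low, at 31.4 and 29.6 CPM. The part of this low level in the calls was not tested. The calls for Myb in both classes held with each library left out in turn, and each of the others was lost without at least 1 library.

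The class led by Dppa5a, Afp and Dppa3 (188, 196, 33 and 61 cells) matched the germ cell list by its sums, but its makeup differed between the gates. Dppa3, a germ cell marker, was in 7.45% and 7.65% of its MMPlow cells and 63.6% and 72.1% of its MMPhigh cells. Of 4 genes tested, 2 were called, beside 22.9% of all genes. Ikzf2 was at 366, 365, 62.4 and 42.0 CPM (log2 difference -2.80, SE 0.22, edgeR adjusted p = 8.98e-05), a call that held with each library left out in turn. Mycn was at 27.0, 26.6, 45.9 and 57.8 CPM (1.03, SE 0.28, edgeR adjusted p = 0.027) and was lost without MMPlow 1 (0.22), MMPlow 2 (0.22) or MMPhigh 2 (0.098). Both differences moved with the share of Dppa3 cells, whose part was not tested.

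Among the remaining blood classes, Gfi1b in megakaryocyte-like cells rose from 74.5 and 88.2 CPM to 99.03 and 115 CPM (log2 difference 0.53, edgeR adjusted p = 0.030), and Cd27 fell from 15.3 and 8.66 CPM to 2.68 and 2.23 CPM (-2.15, edgeR adjusted p = 0.0042), beside 16.1% of genes called. Unlike Gfi1b, Cd27 passed the filter on low counts there through MMPlow alone. Both calls were lost without MMPlow 1 (0.28 and 0.16) or MMPhigh 2 (0.33 and 0.077). Adgrg1 in erythroid-like cells rose from 66.6 and 63.0 CPM to 80.8 and 83.7 CPM (0.40, edgeR adjusted p = 0.021), beside 13.8% called, and was lost without MMPlow 2 (0.19). Gfi1b was called higher there without MMPlow 1, MMPhigh 1 or MMPhigh 2, and Procr lower without MMPhigh 1. Procr was read 15 times in erythroid-like cells of MMPlow and never in MMPhigh. It passed the filter on low counts through MMPlow alone, so that call supports nothing beyond those counts. In the granulocyte- or mast-like class, with 23.3% called, Procr was at 7.03, 7.27, 1.43 and 1.61 CPM (-1.91, edgeR adjusted p = 0.045). Procr passed the filter on low counts there through MMPlow alone, so the call supports nothing beyond few reads in MMPhigh. That call was lost without any 1 of the 4 libraries, with adjusted p between 0.064 and 0.32. Without MMPhigh 2 the class gave 6 calls (Hlf, Ikzf2, Adgrg1, Myb and Cd27 lower and Gfi1 higher), beside 20.3% of genes called and on MMPhigh 1 alone for the MMPhigh side. Without MMPhigh 1 it gave 1, Ikzf2 (-0.79, adjusted p = 0.00068), beside 28.9%. The Flt3- and Mndal-led cluster made up 398 of 790 and 482 of 1025 cells of this class in MMPlow and 38 of 45 and 44 of 66 in MMPhigh, and its part in these values was not tested.

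Endothelial-like cells, where Procr was highest, gave 0 calls among 9 genes tested by edgeR, beside 1.32% of all genes, with 4 at an unadjusted p under 0.05. DESeq2 was not run on the classes beyond the progenitor-like one. Procr in these cells was at 17.15, 16.98, 12.4 and 23.3 CPM, the MMPhigh values resting on 15 and 13 cells. A difference in Procr within endothelial-like cells was not detectable at this depth. For Adgrg1, 446 and 457 UMIs were counted in endothelial-like cells of MMPlow and none in MMPhigh, at least 2.57-fold lower by the same limit, and it was not called. With replicate number as a block, Adgrg1 was called lower, the 1 call among the 9 genes. Neural or neural crest-like cells (8 tested, 2 at an unadjusted p under 0.05, 4.26% of genes called) and muscle progenitor-like cells (3 tested, 1 at an unadjusted p under 0.05, 2.00% called) also gave 0 edgeR calls. With the block, neural or neural crest-like cells gave 2 lower calls, Cd27 and Myb, and muscle progenitor-like cells 0. Without MMPhigh 1 or MMPhigh 2, Myb was called lower in both classes (adjusted p = 5.2e-07 and 0.010 in neural or neural crest-like, 0.0060 and 0.0485 in muscle progenitor-like cells).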

How the data were processed

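Raw UMI counts per gene and cell barcode were deposited by the authors for 2 MMPlow and 2 MMPhigh libraries (10x 3' kit, version 3, up to 10000 cells targeted per lane, per the labels' protocols). The file headers name Cell Ranger 7.0.1, whereas the submitters' processing notes name Cell Ranger 2.1.1 and the mm10 build. Libraries held 51800709 to 120168395 UMIs. Groups came from the sample titles. The genes and lists were chosen with earlier results of these data known.

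Barcodes with at least 2000 UMIs, 1000 genes and at most 25% mitochondrial UMIs were kept. Scrublet marked 2, 996, 0 and 68 doublets, and 1, 887, 0 and 0 with another seed. It had thus not worked in MMPlow 1 and MMPhigh 1 and was unstable in MMPhigh 2. In all libraries the calls and the highest 6% of scores (982, 1137, 207 and 204 cells) were removed. Cells were clustered with scanpy 1.11.5 (2000 variable genes without the 10 genes, 30 components, 15 neighbours, Leiden resolution 1, finer resolution 2) and named from 14 marker lists, so names are rebuilt and not the authors'. Counts summed per class and library (at least 20 cells, 10 for endothelial-like) were tested with edgeR 4.0.16 (TMM, its expression filter, quasi-likelihood test, Benjamini-Hochberg adjustment) in R 4.3.3, with DESeq2 1.42.0 as an alternative. The scripts were tested on simulated data. CPM are UMIs scaled to 1000000 per sum, and the 10 log2 pseudocount was used for gene similarity alone. Intervals are exact 95% intervals and, like the floor of 3 counts, cover counting error only. The neural or neural crest-like background for shares, and the all-gene background of shares (genes found in at least 10 cells), were chosen after values were seen.

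The text names all 10 genes, the 3 called companions with the largest change in each of the all-cell and progenitor-like comparisons, and up to 3 most similar genes. Genes beside Hlf were named after their values were seen. Alternatives were the tool, size factors, filters, doublet removal, thinning, clustering, the replicate block and each library left out. Doublet removal was varied for summed counts alone, and not for shares, co-detection, pairs or the Hlf split. Replicate numbers are given by the titles, but nothing says that same-numbered libraries share embryos or a day.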

Additional observations from a re-analysis of the deposited data

Results flagged for a closer look

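Adgrg1, Mycn and Gfi1b were called in opposite directions in different classes. Adgrg1 was lower in MMPhigh in mesenchymal-like cells (log2 difference -2.62) and higher in erythroid-like cells (0.40). Mycn was lower in macrophage-like cells (-3.00) and higher in the class led by Dppa5a, Afp and Dppa3 (1.03). Gfi1b was lower in macrophage-like (-2.36) and mesenchymal-like cells (-2.02) and higher in megakaryocyte-like (0.53) and progenitor-like cells (0.67). The progenitor-like value of Gfi1b turned to -0.70 with the 10 genes allowed in clustering. The lower calls lay at low levels, and in macrophage-like cells Mycn and Gfi1b passed the filter on low counts through MMPlow alone. In MMPlow, mean Gfi1b was 5.69 CPM in macrophage-like and 6.16 CPM in mesenchymal-like cells, against 81.3 CPM in megakaryocyte-like and 57.0 CPM in progenitor-like cells. Endothelial-like and neural or neural crest-like cells of MMPlow had a similar 5.80 and 4.87 CPM. Mean Mycn in macrophage-like cells of MMPlow was 3.25 CPM. The difference between the classes itself was not tested.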

How the results depend on the processing

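Over all cells, 5 to 8 of the genes were called with 1 library left out in turn, 5 without MMPlow 2. In progenitor-like cells the 2 calls became 0 with DESeq2, with no filter on low genes, with cells thinned to 2000 UMIs and with the 10 genes allowed in clustering, 1 with at least 5000 UMIs and 2000 genes per cell (Adgrg1, which was not one of the 2), and 0 to 2 with 1 library left out. At resolution 0.5 no progenitor-like class was found, so it gives no value. The 16 calls in other classes became 7 to 21 with 1 library left out, 7 without MMPlow 1 and 8 without MMPlow 2. The share of all genes called also changed with a library left out. Without MMPlow 1 or MMPlow 2 it was lower over all cells and in most of the other classes. The changed numbers of calls are thus not a property of the 10 genes alone. The cause of these changes was not tested.

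Without thinning, 2 genes in place of 8 were found in a smaller share of MMPhigh cells, and the difference in cells with at least 3 genes turned from -1.11 to 9.22 percentage points, and was -0.25 with thinning to 1000 UMIs, -0.53 with 5000 UMIs and -0.15 with at least 5000 UMIs per cell. In progenitor-like cells that difference, 7.82 points, became 1.52 at resolution 2, 0.080 with the 10 genes allowed in clustering, 4.98 and 24.4 with thinning to 1000 and 5000 UMIs, 52.7 without thinning and 10.96 with at least 5000 UMIs per cell. The share differences also turned without thinning for Hlf (0.90 points), Ikzf2 (9.43), Mycn (6.55), Gfi1b (4.74) and Myb (3.52), with thinning to 5000 UMIs for Ikzf2 (0.35), and, for Adgrg1, without MMPlow 2 (-0.30, the lowest value with 1 library left out, the highest being 1.32). The Adgrg1 difference was 0.51 at 2000 UMIs, 17.1 without thinning and 6.31 at 5000 UMIs. Over all cells, Gfi1b turned to -0.018 on the log2 scale with thinned cells. In progenitor-like cells uncalled differences turned: with 1 library left out in turn, Ikzf2 ranged from -0.15 to 0.67, Mycn from -0.71 to 1.18 and Myb from -0.0035 to 0.24, and Myb turned to -0.017 with at least 5000 UMIs and -0.18 with thinned cells. With the 10 genes allowed in clustering, Adgrg1 (-0.18), Neurl3 (0.31), Gfi1b (-0.70), Myb (-0.45) and Cd27 (0.37) turned. The highest class was a blood class for 8 genes in all 4 clusterings, with no share over all genes computed beside it.

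The count of all genes called in progenitor-like cells, 1187, was 113 with thinned cells, 266 with at least 5000 UMIs, 300 with DESeq2, 2505 at resolution 2 and 227 to 2501 with 1 library left out. With replicate number as a block it was 1755. The block left the 8 calls over all cells at 8, gave 3 in place of 2 in progenitor-like cells and 19 in place of 16 in other classes. It added Cd27 in progenitor-like cells (adjusted p = 0.045), Cd27 (0.048) and Myb (0.0016) in neural or neural crest-like cells, Adgrg1 in endothelial-like cells (0.046), Gfi1b in erythroid-like cells (0.020) and Ikzf2 in the Muc13- and Prkg1-led cluster (0.0092), and took away Procr in the granulocyte- or mast-like class (0.089). Deviations of same-numbered libraries correlated at 0.12 over all cells and 0.19 in progenitor-like cells, and no label says what a number shares. Over the all-cell, progenitor-like and share values and the calls made in other classes and clusters (calls gained there are not in this tally), 458 kept direction and side of the threshold or moved by less than the spread between libraries, 54 moved by more (counts, by over 1.5 times), 87 were no longer called, 7 became called and 20 turned. Few cells limit MMPhigh: 53 and 44 progenitor-like and 15 and 13 endothelial-like.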
